A study of Mus musculus with 5 samples.

Results

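A MEK inhibitor was the single agent added for 12 h to mouse epiblast stem cells (line E3), which stem from the epiblast after implantation and are pluripotent. The comparison with the untreated culture took all genes with a named probe that was detected, at a detection p under 0.01, on the array of the MEK inhibitor or on that of the control. These were 7773 of the 16593 named genes on the array, read by 10609 detected probes. Of them 7080 were detected on both arrays, 373 on the inhibitor array alone and 320 on the untreated array alone.

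All 5 cultures of the series had grown on inactivated CF1 embryonic fibroblasts, which act as a feeder layer, with 5 ng/ml FGF2 in medium containing knockout serum replacement (KSR). At semiconfluence this was exchanged for 12 h. The untreated culture received KSR medium with nothing added, so it had no added FGF2 either. The culture called PD received 1 µM PD0325901, the MEK inhibitor. A culture called CH received 3 µM CHIR99021, which inhibits GSK3, one called LIF received 1000 U/ml of leukemia inhibitory factor, and one called PCL received all 3 agents. FGF2 was therefore withdrawn from every culture, also from the control. The material is a single cell line, with 1 array per condition and feeder cells present in the dish, and no deposited label separates feeder RNA from stem cell RNA. In such a bulk sample, fewer cells of a type and less RNA per cell cannot be told apart.

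MEK is the kinase that phosphorylates and activates ERK, the last kinase of the cascade that runs from receptor tyrosine kinases through RAS and RAF. Active ERK enters the nucleus, where it drives immediate early genes and ETS family factors, and it induces phosphatases and Sprouty proteins that damp the same cascade. In the epiblast, FGF acting through ERK is known for opposing the naive pluripotent state and for supporting commitment to the germ layers. In fibroblasts and epithelia, ERK signalling is also tied to growth, amino acid metabolism and the make-up of the extracellular matrix.

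Levels are given as background-corrected, quantile-normalized log2 intensities, and a difference is the PD level minus the untreated level on that scale. Each ± is the bead standard error, which covers the spread of beads within the arrays and not that between cultures. With 1 array per condition no p-value was computed, and "higher" and "lower" below describe these 2 arrays. A level of one probe cannot be set against that of another. A gene detected on 1 of the 2 arrays only has a bound, written "at least N-fold", and entered the comparison through the array where it was bright. Between 10389 and 10898 probes were detected per array, with 10735 on the PD array and 10610 on the untreated array. The median bead standard error of a difference was 0.14. All 12 listed epiblast markers were detected on at least 1 of the 2 arrays, among them Pou5f1, Sox2, Fgf5 and Otx2.

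Few genes differed by a large factor. At least 2-fold higher with PD were 38 genes, 0.489% of those compared, and at least 2-fold lower were 35 genes, 0.45%. When genes detected on 1 array were counted at their bound, 32 and 28 genes passed. At 1.5-fold, 447 genes were higher (5.75%) and 362 were lower (4.66%), which puts 55.3% of the genes past 1.5-fold on the higher side. Under median scaling instead of quantiles the split was 640 higher and 248 lower, or 72.1% on the higher side, so the balance of directions depends on the scaling. Over all genes the median difference was 0.0014, and the central 95% of genes lay between -0.70 and 0.74.

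**Figure D1:**
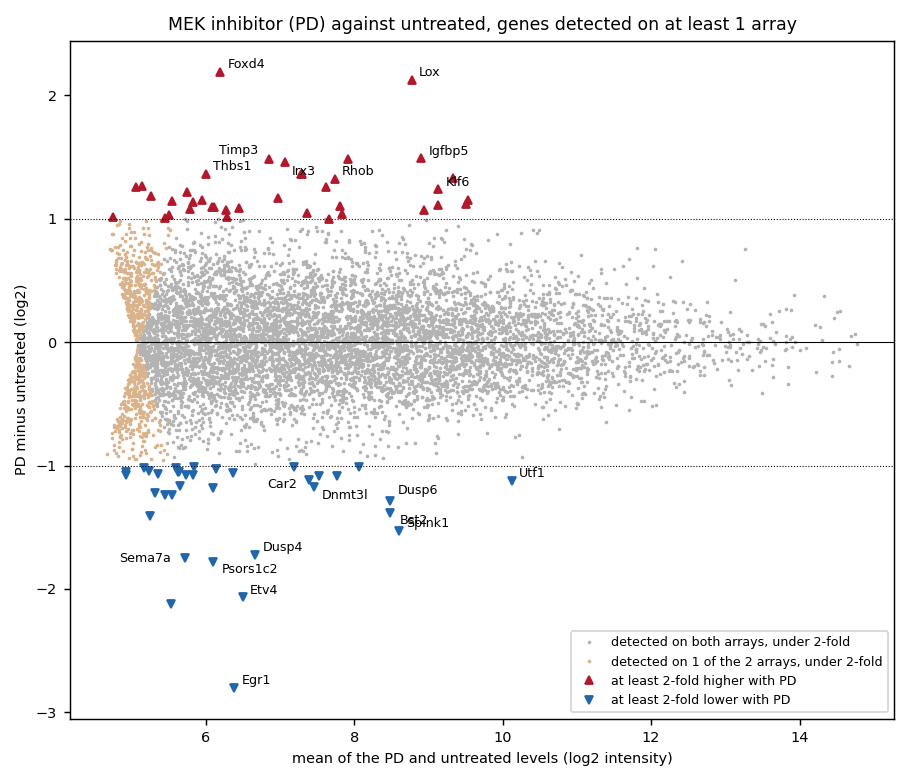
Difference between the PD and the untreated array (log2, vertical axis) against the mean of both levels (log2 intensity, horizontal axis) for the 7773 genes, 1 point per gene; dotted lines mark 2-fold. The 38 genes at least 2-fold higher and the 35 at least 2-fold lower lie outside a band that narrows with level, and the tan points are genes detected on 1 of the 2 arrays.

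Genes of the classic ERK response were lower, which serves here as the reference for the rest. In the list of ERK targets and feedback genes, 18 of 27 members on the array were detected, and 17 of them lay below 0, with a median of -0.58. Over all genes, 49.6% lay below 0. Egr1, an immediate early zinc finger factor, read 7.78 on the untreated array, 7.90 on CH and 7.37 on LIF, and was not well above background on the PD and PCL arrays, at least 6.57-fold lower with PD. Etv4, an ETS factor induced by FGF, differed by -2.07 ± 0.20, with 7.53 untreated, 8.15 on CH and 7.25 on LIF against 5.46 on PD and 5.44 on PCL. The phosphatases that act on MAP kinases went the same way: Dusp4 differed by -1.72 ± 0.12, Dusp6 by -1.29 ± 0.11, and Dusp14 was at least 2.14-fold lower. Dusp14 was not detected on LIF either, and read 5.38 on CH against 6.17 untreated. Spry4, a feedback inhibitor of receptor signalling, was at least 1.79-fold lower. In the whole dual specificity phosphatase family, 9 of 13 detected members lay below 0 (median -0.31), with Dusp19 at -0.49 and Dusp1 at -0.44, and 3 passed 1.5-fold. Against the same untreated array the family's median was -0.22 on LIF and -0.03 on CH. PD against the mean of the untreated, CH and LIF arrays gave -0.15.

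Several of the 20 genes most higher with PD encode secreted and matrix proteins. Lox, lysyl oxidase, which cross-links collagen and elastin, read 7.71 on the untreated array, 7.67 on CH and 8.03 on LIF, against 9.83 on PD and 9.10 on PCL. Both arrays with the MEK inhibitor thus stood above all 3 without it. The PD difference was 2.12 ± 0.11, a 4.36-fold higher level. Igfbp5, which binds insulin-like growth factors and settles in the matrix, read 8.16 untreated and 9.65 with PD, a difference of 1.49 ± 0.08, but its PCL level of 8.29 lay below the 8.71 of the LIF array. Timp3, a matrix-bound inhibitor of metalloproteinases, read 6.11 untreated, 6.32 on CH, 6.57 on LIF, 7.60 on PD and 7.61 on PCL. Cd248, endosialin, a glycoprotein of stromal cells, read 7.18, 7.14 and 7.37 on the untreated, CH and LIF arrays, 8.66 on PD and 8.17 on PCL. Its second detected probe gave 0.37, against 1.48 ± 0.14 from the brighter one.

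Further matrix genes past 2-fold had smaller contrasts. Tgm2, transglutaminase 2, another protein cross-linking enzyme, was 1.37 ± 0.13 higher, at 7.98 on PD and 7.59 on PCL against 6.61 to 7.15 on the arrays without the inhibitor. Thbs1, thrombospondin 1, a matrix protein that activates latent TGF-beta, was 1.36 ± 0.22 higher with PD, yet PCL and CH differed by only 0.08. Fbln2, fibulin 2, differed by 1.11 ± 0.10, and its other detected probes gave 0.34 and 0.49. Ccdc80, a secreted matrix-associated protein, was detected on the untreated, PD and PCL arrays and not on CH or LIF, with 6.32 on PD and 6.19 on PCL against 5.25 untreated. Lrrc15, a leucine-rich repeat membrane protein of stromal cells, was 1.26 ± 0.13 higher, with no such difference between PCL and CH (-0.03).

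As a group, the TGF-beta responsive matrix genes had 23 of 29 members detected, of which 20 lay above 0, with a median of 0.31; over all genes 50.2% lay above 0. Past 1.5-fold were 8 members on the higher side and 1 on the lower side. Besides those named they included the receptor Tgfbr1 (0.84 ± 0.09), the latent TGF-beta binding protein Ltbp4 (0.83 ± 0.15, its other probes -0.19 and 0.10) and Timp2 (0.73 ± 0.10). The exception was Timp1, the soluble inhibitor of metalloproteinases at -0.93 ± 0.07, with -0.83 from its second probe. The inhibitors of metalloproteinases thus divided, Timp2 and Timp3 higher and Timp1 lower. For PCL against CH, a pair of arrays that shares none with PD against untreated, the list's median was 0.08. Against the same untreated array it was 0.23 on LIF and 0.03 on CH. PD against the mean of the untreated, CH and LIF arrays gave 0.39.

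Collagens lay mostly on the higher side as well. Of 37 collagen genes on the array 11 were detected, and 10 of these lay above 0, with a median of 0.45. Col5a1 was 0.85 ± 0.08 higher, the basement membrane chains Col4a1 and Col4a2 were 0.72 and 0.55 higher, Col1a1, the main chain of fibrillar collagen, was 0.65 ± 0.16 higher, and Col18a1 was 0.53 higher by its brightest probe and -0.18 by another. On CH, which shares the untreated array, Col5a1, Col4a1 and Col4a2 differed from untreated by 0.53, 0.54 and 0.38, and the family's median was 0.35. Only Col1a1 of these 5 also stood higher in PCL than in CH (0.80), and the family's median there was -0.28. Integrins, the receptors for matrix proteins, had 7 of 8 detected members above 0 (median 0.22). Against the same untreated array the integrin median was 0.25 on LIF and 0.15 on CH. It was 0.02 for PCL minus CH and 0.10 for PD against the mean of the untreated, CH and LIF arrays. Itga5, part of the fibronectin receptor, was at 0.66 ± 0.17 with PD and 0.80 from its second probe. Itga11, a collagen receptor chain, was detected with PD and not on the untreated array. Annexins had 5 of 7 above 0 (median 0.33), led by Anxa6 at 0.99 ± 0.13. Their median against untreated was 0.26 on LIF and -0.08 on CH.

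The list of matrix glycoproteins and proteoglycans was less uniform, with 18 of 27 detected members above 0 and a median of 0.12. Mgp, matrix Gla protein, an inhibitor of calcification, was the lowest member at -1.03 ± 0.20. Its untreated level of 6.65 was itself the highest of the 5 arrays, against 5.62 on PD, 5.32 on LIF and background on CH and PCL. Of the IGF binding proteins 6 were detected and 5 lay above 0 (median 0.29, or 0.13 with bounds), with Igfbp3 at 0.41 ± 0.10 and Igfbp4 at -0.33. Against the same untreated array the family's median was 0.40 on LIF and -0.27 on CH, and for PCL minus CH it was 0.45. With detection required on both arrays the PD median was 0.18, and with no filter on detection 0.09. Igfbpl1, a secreted relative, was detected with PD alone of the 2 arrays.

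Mesenchymal genes and repressors of epithelial genes had 11 of 14 detected members above 0. Their median was 0.39, or 0.20 with genes detected on 1 array at their bound. It was 0.23 against the mean of the 3 arrays without PD, 0.14 without background correction and 0.16 with no filter on detection. Against the same untreated array the list's median was 0.22 on CH and 0.28 on LIF. Among them were the repressor Zeb1 (0.69 ± 0.15), its relative Zeb2 (0.65, at 5.92 on PD and 6.14 on CH) and the basic helix-loop-helix factor Tcf4 (0.75 ± 0.07). Fibroblasts of the feeder layer make many of the same proteins. Of 17 feeder fibroblast markers on the array 11 were detected, 7 of them above 0 (median 0.11). Col1a2, Col3a1, Col5a2, Pdgfrb, Postn and S100a4 were not detected on either array. The summed level of the 11, on the linear scale, was 5689.5 on the untreated array and 8144.0 on PD, and it was 6183.7 on CH, 5796.3 on LIF and 7381.5 on PCL. Such a sum weights each gene by the brightness of its probe, so it does not measure the amount of feeder RNA. The bright probe of Acta2, smooth muscle actin, made up most of it. Without Acta2 the sums were 2437.3 untreated, 2647.5 on PD, 2501.6 on CH, 2671.3 on LIF and 2517.6 on PCL. The part of feeder RNA in the matrix genes was not tested.

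**Figure D2:**
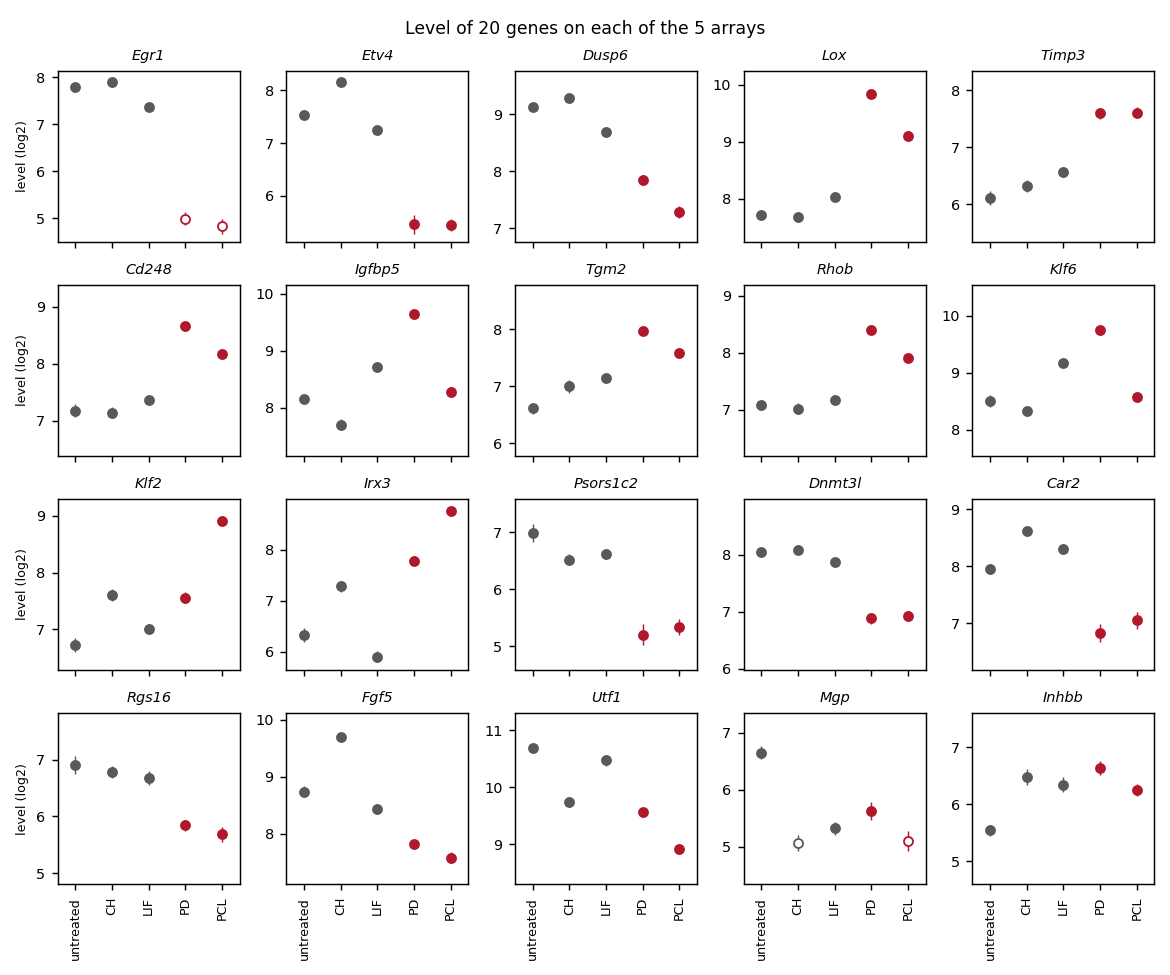
Log2 level (vertical axis of each panel) of 20 genes on the untreated, CH, LIF, PD and PCL arrays, 1 point per array with its bead standard error; red points are the 2 arrays with the MEK inhibitor, and open points are below detection. Lox, Timp3, Cd248 and Rhob stood higher and Psors1c2, Dnmt3l and Car2 lower on both red arrays than on all 3 others, whereas Igfbp5, Klf6 and Inhbb were not set apart on PCL.

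Some contractile genes of the actin cytoskeleton were also higher. Serum response factor (SRF) controls many of them, either with ETS partners that ERK phosphorylates or with myocardin-related partners that sense actin. The SRF and actin list had 24 of 30 members detected, 16 above 0, with a median of 0.14. Against the mean of the untreated, CH and LIF arrays the median was 0.09, and for PCL minus CH it was -0.14, with 9 members above 0 and 15 below. Its highest members were contractile: Actg2, enteric smooth muscle actin, differed by 1.14 ± 0.19 (5.26 untreated, 5.56 on CH, 5.67 on LIF, 6.39 on PD, 6.30 on PCL). Acta2 differed by 0.76 ± 0.06 and the actin-binding protein Tagln, transgelin, by 0.75 ± 0.21, and for both PCL exceeded CH, by 0.40 and 0.55. Fhl2, a cofactor of SRF, was 0.79 ± 0.22 higher with PD, but PCL minus CH was -0.63. Vcl, vinculin of focal adhesions, differed by 0.54. Rhob, a small GTPase that regulates actin and endosomes, read 7.08, 7.02 and 7.17 without the inhibitor, 8.40 with PD and 7.91 with PCL, a PD difference of 1.32 ± 0.10. Among myosins, 10 of 15 detected members lay above 0 (median 0.16), led by the light chain Myl3 at 0.81 ± 0.17 and the heavy chain Myh9 at 0.47, against Myl12a at -0.47. The myosin median was -0.02 with no filter on detection, and 0.24 against the mean of the untreated, CH and LIF arrays.

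The CArG box, the sequence bound by SRF, was sought on both strands from 250 bases before to 50 after the starts of genes, in RefSeq promoters of the build GRCm38.p6. It was found in 1.65% of the 6372 compared genes with a promoter entry, in 13 of 353 genes at least 1.5-fold higher (3.68%) and in 4 of 286 at least 1.5-fold lower (1.4%). Of 20 SRF and actin genes with an entry 5 held one, with a median difference of 0.45, against 0.14 for the 15 without. Over all compared genes with an entry, the median was -0.015 with a box and -0.0014 without. Among the 13 genes, Fhl2 held a box in a further promoter as well (chr1:43196712-43197011, minus strand), which is not printed. From the 13 genes, 3 promoters are printed to show the box, in capitals. They are Nfix, a transcription factor gene (chr8:84772826-84773125, minus strand), Fhl2 (chr1:43163912-43164211, minus strand) and Lima1, an actin-bundling protein gene chosen after its values were seen (chr15:99820100-99820399, minus strand).
Nfix: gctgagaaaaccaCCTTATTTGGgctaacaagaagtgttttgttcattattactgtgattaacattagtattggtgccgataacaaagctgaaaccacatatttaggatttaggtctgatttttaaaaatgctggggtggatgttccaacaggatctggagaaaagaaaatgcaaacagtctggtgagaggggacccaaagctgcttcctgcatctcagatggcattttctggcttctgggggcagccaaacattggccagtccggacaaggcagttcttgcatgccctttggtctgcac
Fhl2: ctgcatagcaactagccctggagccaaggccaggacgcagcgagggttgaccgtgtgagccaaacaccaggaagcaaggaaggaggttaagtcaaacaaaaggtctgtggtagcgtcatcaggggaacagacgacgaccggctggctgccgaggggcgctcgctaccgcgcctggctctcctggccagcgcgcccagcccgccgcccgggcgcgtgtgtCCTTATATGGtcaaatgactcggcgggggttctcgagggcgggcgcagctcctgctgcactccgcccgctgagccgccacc
Lima1: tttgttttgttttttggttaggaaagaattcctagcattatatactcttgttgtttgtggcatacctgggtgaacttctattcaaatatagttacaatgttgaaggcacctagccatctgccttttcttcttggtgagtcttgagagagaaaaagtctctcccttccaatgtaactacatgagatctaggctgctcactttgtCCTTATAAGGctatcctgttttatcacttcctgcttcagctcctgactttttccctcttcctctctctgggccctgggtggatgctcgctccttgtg
Nfix differed by 1.09 ± 0.19, with 5.56, 5.66 and 5.52 on the arrays without the inhibitor, 6.65 on PD and 6.32 on PCL. Lima1 differed by 0.81 ± 0.09, and by 0.35 through its second probe. A match describes the letters of a promoter and not binding of the factor.

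The same promoters were read for 7 other motifs. The ETS core CCGGAAG stood in 21.7% of all compared genes with an entry, in 14.7% of those at least 1.5-fold higher and in 21.3% of those at least 1.5-fold lower. The cAMP response element TGACGTCA stood in 3.74%, 3.12% and 1.4%, and the TEAD motif GGAATG in 14.4%, 12.8% and 19.6%, in the same order. For the AP-1 motif TGANTCA the shares were 6.12%, 6.8% and 4.2%, and for the EGR motif GCGTGGGCG 1.33%, 0.85% and 1.05%. The E-box CACGTG gave 12.2%, 11.3% and 13.6%, and the TATA box TATAAA 8.58%, 11.6% and 9.44%. No test was run on these shares.

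Some transcription factors also stood higher. Foxd4, a forkhead factor of the early neural plate, was detected on the PD and LIF arrays alone, at 7.29 and 5.36, and was at least 4.56-fold higher with PD than untreated. It was not detected with PCL. Irx3, an Iroquois homeobox factor of the neural plate, read 6.33 untreated, 5.90 on LIF, 7.29 on CH, 7.79 on PD and 8.77 on PCL. Its difference of 1.46 ± 0.16 with PD stood beside 1.48 for PCL against CH. Klf6, a zinc finger factor of the Kruppel-like family, differed by 1.24 ± 0.13, with 0.68 from its second probe, and by 0.24 between PCL and CH. Klf2, a Kruppel-like factor of the naive pluripotency network, read 6.73 untreated, 7.61 on CH, 7.01 on LIF, 7.56 on PD and 8.90 on PCL, 0.83 ± 0.15 higher with PD. In the Kruppel-like family 6 of 9 detected members lay above 0 (median 0.23), Klf7 at 0.54 and Klf3 at 0.45 among them and Klf5 at -0.38. The 14 detected forkhead genes had no common direction (median 0.03).

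The neural and neural crest list, which holds Irx3, Foxd4 and Chrna4, had 10 of 12 detected members above 0 and a median of 0.51, but 25 of its 37 members on the array were not detected. With no filter on detection its median was 0.0071, without background correction it was 0.22, and against the mean of the untreated, CH and LIF arrays it was 0.30. Chrna4, a subunit of the nicotinic acetylcholine receptor, was 1.37 ± 0.14 higher, and 1.02 through its second probe. The retinoic acid binding proteins went apart: Crabp2 was 0.88 ± 0.17 higher and Crabp1 -0.90 ± 0.08, and PCL against CH showed the same signs, 1.07 and -0.61. Rarb, a retinoic acid receptor, was 0.82 ± 0.20 higher, and 1.12 through its second probe. The 8 detected genes of retinoic acid signalling were evenly divided (median -0.04). Sox1, Pax6 and Neurog2, which define the neural plate and its progeny, were below detection on both arrays, and Nes, nestin, was 0.51 higher.

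The remaining genes among the 20 highest had mixed functions, and several of them did not separate the arrays by inhibitor. Ap2b1, a subunit of the clathrin adaptor, differed by 1.33 ± 0.10, but its other probes gave 0.12 to 0.90, and CH and LIF read 9.0 and 9.45 against 8.66 untreated. Nek9, a mitotic kinase, read 8.96 untreated, 9.66 on CH, 9.61 on LIF, 10.11 on PD and 9.29 on PCL, with 0.15 from its second probe. Atm, the kinase of the DNA double-strand break response, differed by 1.22 ± 0.25 and read 6.25 on LIF against 6.35 on PD. Trak1, an adaptor for mitochondrial transport, differed by 1.16 ± 0.16, and Cacna1h, a T-type calcium channel, was at least 1.68-fold higher. Ap3b2, a neuronal adaptor subunit, was at least 1.60-fold higher with PD, and reached 7.10 on PCL against 5.69 on CH. Gpd1, glycerol-3-phosphate dehydrogenase, was detected on the PD and PCL arrays alone and was at least 1.51-fold higher with PD. Ppl, periplakin, gave 1.15 ± 0.19 from its brightest probe and -0.84 from the other, so its direction is not settled.

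**Figure D3:**
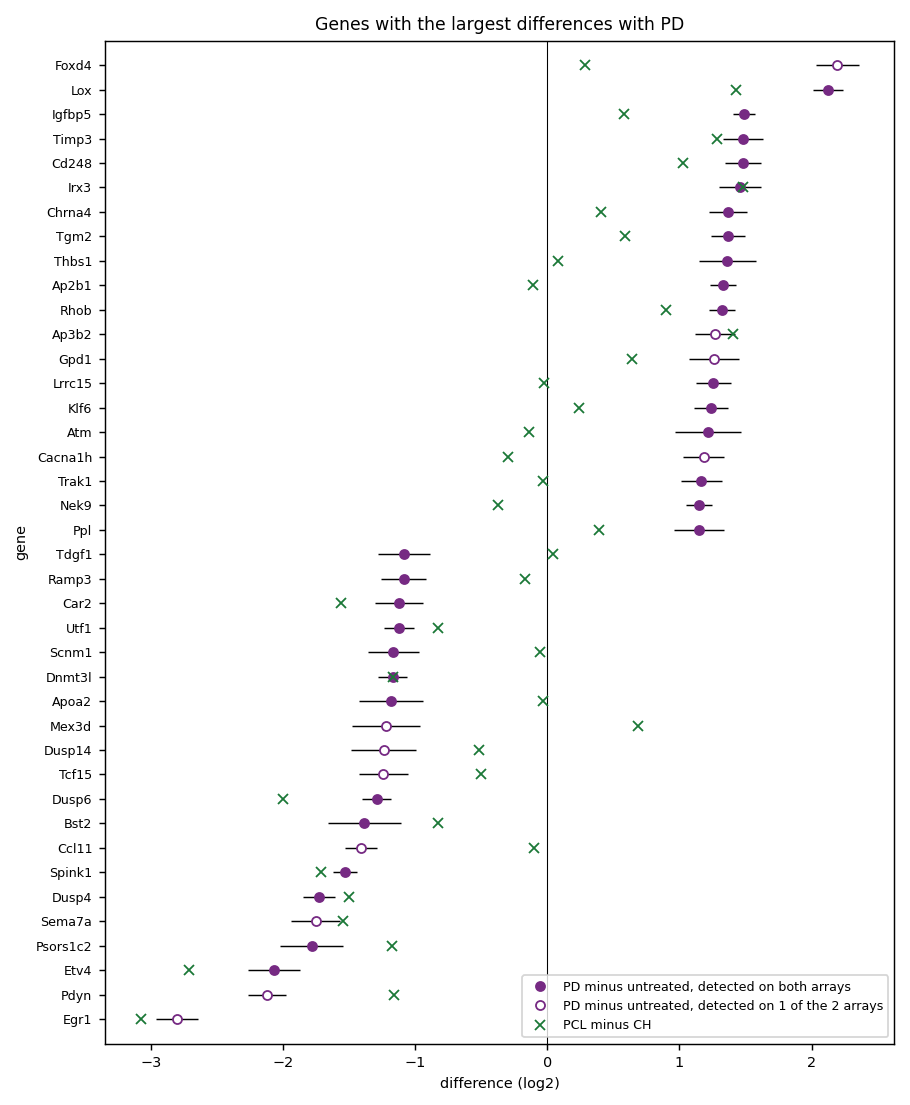
Difference (log2, horizontal axis) of the 40 genes with the largest values past 2-fold, 20 on each side: circles give PD minus untreated with the bead standard error, open where the gene was detected on 1 of the 2 arrays, and crosses give PCL minus CH. Lox, Timp3, Irx3 and Cd248 have crosses at or above 1.03, while the crosses of Ap2b1, Lrrc15, Trak1 and Nek9 lie at or below 0.

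Outside the classic ERK list, the lower side held genes of several kinds. Psors1c2, a gene of the major histocompatibility region, read 6.99, 6.52 and 6.63 on the untreated, CH and LIF arrays, 5.21 on PD and 5.34 on PCL. Its difference was -1.78 ± 0.24, as large as that of Dusp4. Sema7a, a membrane-anchored semaphorin, was detected on the 3 arrays without the inhibitor and on neither array with it, at least 2.87-fold lower with PD. Spink1, a serine protease inhibitor, differed by -1.53 ± 0.09, but its lowest level of all was on the LIF array (6.94, against 9.37 untreated, 9.43 on CH, 7.84 on PD and 7.72 on PCL). Pdyn, prodynorphin, an opioid precursor, was at least 2.89-fold lower by its brighter probe, and its second probe gave 0.20.

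Dnmt3l, a cofactor of the de novo DNA methyltransferases, read 8.05, 8.09 and 7.86 without the inhibitor, 6.88 on PD and 6.93 on PCL. Both of its probes gave nearly the same difference, -1.17 ± 0.11 and -1.12. The other detected DNA methylation enzymes had no such contrast, with Mbd1 at 0.51, Mbd3 at -0.43, Uhrf1 at 0.37 and Dnmt1 at 0.23 (list median 0.06). Car2, carbonic anhydrase 2, read 7.95, 8.61 and 8.31 without the inhibitor, 6.82 with PD and 7.05 with PCL, a PD difference of -1.12 ± 0.18. Rgs16, which speeds GTP hydrolysis by G alpha subunits, read 6.90, 6.77 and 6.67, then 5.84 and 5.69, a difference of -1.06 ± 0.19. With Rgs16 included, 4 of the 6 detected members of that family lay below 0 (median -0.37), Rgs19 being below detection with PD, but the family's median was 0.095 when PD was set against the mean of the untreated, CH and LIF arrays.

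Several of the 20 lowest genes were also low on the CH or the LIF array. Apoa2, an apolipoprotein, read 6.69 untreated, then 5.71 on CH, 5.43 on LIF, 5.51 on PD and 5.67 on PCL. Scnm1, a splicing factor, differed by -1.16 ± 0.19 (second probe -0.36), with 5.37 on LIF against 5.07 on PD. Ramp3, which modifies calcitonin family receptors, differed by -1.09 ± 0.17, with 6.77 on CH against 6.98 on PD. Mex3d, an RNA-binding protein, was not detected with CH either, and its bound with PD was at least 1.82-fold lower. Ccl11, eotaxin, a chemokine of fibroblasts, was at least 1.84-fold lower, and Tcf15, a basic helix-loop-helix factor of the epiblast and somites, at least 2.0-fold lower.

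Pluripotency genes did not share a direction. Of the 12 epiblast markers 6 lay above 0 and 6 below, with a median of 0.01. Utf1, a chromatin factor of pluripotent cells, was -1.12 ± 0.12, at 9.56 with PD and 8.92 with PCL against 10.69 untreated and 10.48 on LIF, although CH alone read 9.74. Tdgf1, the Nodal co-receptor Cripto, was -1.09 ± 0.20 with PD and did not differ likewise between PCL and CH (0.05). Fgf5, an FGF of the post-implantation epiblast, read 8.73 untreated, 9.70 on CH, 8.44 on LIF, 7.82 on PD and 7.58 on PCL, a PD difference of -0.91 ± 0.12. Pou3f1 was lower as well, at -0.60. Nanog, a core pluripotency factor, was 0.61 ± 0.10 higher, Otx2 0.31 ± 0.07 higher, and Pou5f1 and Sox2 lay at 0.05 ± 0.08 and -0.04 ± 0.15. A second probe of Pou5f1 gave -0.60. Among 10 detected naive markers 4 lay above 0 (median -0.12), with Klf2 the highest. The reference genes Gapdh and Actb lay at -0.06 ± 0.05 and 0.02 ± 0.07.

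Genes of the cascade from receptor to ERK, with its effectors and regulators, lay slightly above 0 on balance. The list running from FGF receptors to ERK had 22 of 30 members detected, 14 above 0, with a median of 0.16, or 0.09 after the median of each gene's span group was taken off, as described further on. Fgfr2, a receptor for FGFs, was detected on the PD and PCL arrays and on none of the others, at least 1.72-fold higher with PD. Map2k1, which encodes MEK1, the target of the drug, differed by 0.61 ± 0.21 but read 6.11 on LIF against 6.06 on PD. Above 0 were also the kinase Mknk2 (0.50), the ETS and HMG box repressors Erf (0.15) and Cic (0.47), the phosphatase Ptpn11 (0.42), the adaptors Gab1 (0.29), Frs3 (0.23) and Shc1 (0.17), the RAS GTPase-activating proteins Rasa1 (0.29) and Rasa2 (0.24), the kinases Rps6ka5 (0.27) and Rps6ka3 (0.14), and Rras2 (0.16). Below 0 were Mknk1 (-0.41), the RAF inhibitor Pebp1 (-0.32), Rras (-0.25), Map2k2 (-0.18), Nras (-0.12), Grb2 (-0.10) and Fgfr1 (-0.03), and Araf lay at -0.0028. The wider family of MAP kinases and their kinases had 15 of 21 detected members above 0 (median 0.24), with Map4k4 at 0.73, Map2k5 at 0.59 and Map3k7 below detection with PD. Against the same untreated array this family's median was 0.23 on LIF and 0.10 on CH. It was 0.11 after the span group medians were taken off and 0.04 with no filter on detection. For the list from receptor to ERK the median was 0.15 on LIF and -0.07 on CH.

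Other receptor tyrosine kinases and insulin signalling genes had 22 of 26 detected members above 0 and a median of 0.23, against -0.01 for PCL minus CH. Irs2, an adaptor of the insulin receptor, differed by 0.88 ± 0.11, the EGF receptor Egfr by 0.60 and the TAM receptor Tyro3 by 0.53, while the mannose 6-phosphate receptor Igf2r, which clears IGF2, lay at -0.64. Nodal signalling genes had 11 of 15 above 0 (median 0.31), led by Inhbb, the beta B subunit of activin (1.10 ± 0.15), the proprotein convertase Furin (0.78 ± 0.09) and Smad3 (0.47), with Tdgf1 and the activin antagonist Fst (-0.48) on the lower side. Inhbb was higher on all 4 treated arrays than on the untreated one, at 6.26 to 6.64 against 5.54. STAT3 and LIF receptor genes had 10 of 12 above 0 (median 0.25), with the kinase Tyk2 at 0.88. Socs3, the feedback inhibitor that STAT3 induces, was -0.85 ± 0.14. Against the same untreated array the STAT3 list's median was 0.42 on LIF and 0.15 on CH. That of Nodal genes was 0.23 on LIF and 0.11 on CH, and that of other receptor tyrosine kinases 0.0002 and -0.01. PD against the mean of the untreated, CH and LIF arrays gave 0.13 for the STAT3 list and 0.18 for Nodal genes. Protein tyrosine phosphatases had 10 of 16 above 0 (median 0.16), led by Ptprk at 0.82. For PCL minus CH that family's median was -0.22, with 4 members above 0 and 12 below.

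Notch, Wnt and guidance genes held single members past 2-fold and no shared shift. Notch3, a Notch receptor, was 1.04 ± 0.13 higher, while 10 of 15 detected Notch signalling genes lay below 0 (median -0.08). Wnt5b, a ligand of the beta-catenin independent branch, was at least 1.62-fold lower and Wnt8a differed by -0.78, in a Wnt list with 11 of 23 above 0 (median -0.01). In the axon guidance list, with a median of -0.09 over 24 detected genes, the receptor Robo1 was 0.92 ± 0.13 higher, while the Eph receptor Epha1 and Sema5a were lower, at -0.85 ± 0.12 and -0.68 ± 0.18. The last pair also stood lower in PCL than in CH, by more, at -1.60 and -1.17, with 9.11 and 6.94 on CH against 7.77 and 5.90 untreated. Semaphorins as a family had 5 of 9 below 0 (median -0.12), and Sema3f was 0.54 higher.

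Adhesion and epithelial genes were mixed. Cadherins and protocadherins had 6 of 7 detected members above 0 (median 0.29), with Cdhr1 at 1.00 ± 0.17, just under 2-fold, P-cadherin Cdh3 at 0.84 and E-cadherin Cdh1 at 0.21. Claudins, the proteins of tight junctions, had 6 of 8 above 0 (median 0.23), with Cldn11 at 0.90 ± 0.08 and Cldn7 at -0.62. Krt42, a type I keratin, was at least 1.31-fold lower and Krt19 differed by -0.53, whereas Krt8 lay at 0.21. S100 proteins had 4 of 5 above 0 (median 0.17), led by S100a13 at 0.60.

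Amino acid metabolism formed a shallow group on the lower side. In the list of amino acid transporters, serine and one-carbon enzymes controlled by ATF4, 29 of 33 members were detected and 21 lay below 0, with a median of -0.30, beside -0.24 for PCL minus CH. Shmt1, which moves one-carbon units between serine and glycine, was -0.87 ± 0.13, at 6.85 with PD against 7.71 to 7.72 on the arrays without the inhibitor and 7.47 with PCL. Cth, which makes cysteine from cystathionine, read 7.82, 7.83 and 8.15 without the inhibitor, 7.02 with PD and 6.58 with PCL. Slc38a1, a glutamine transporter, and Aldh1l2, a mitochondrial folate enzyme, were not well above background with PD. The list was not uniform: the neutral amino acid transporter Slc1a4 was 0.69 higher, and Atf4 itself lay at -0.18 and Asns at -0.16. Aminoacyl-tRNA synthetases had 10 of 17 below 0 (median -0.05), ribosome biogenesis genes 19 of 30 (median -0.15) and nucleotide and polyamine genes 17 of 23 (median -0.13). Fatty acid synthesis and desaturation genes went the other way, 13 of 17 above 0 (median 0.20). Among them were the citrate lyase Acly at 0.67, malic enzyme Me1 at 0.50 and the elongase Elovl6 at 0.48. The list's median was 0.001 for PCL minus CH. Against the same untreated array it was 0.29 on LIF and 0.03 on CH. PD against the mean of the untreated, CH and LIF arrays gave 0.11.

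Interferon-induced genes were lower in 18 of 23 detected cases, with a median of -0.22. Bst2, tetherin, which holds budding virions at the membrane, differed by -1.38 ± 0.28, the ubiquitin-like Isg15 was at least 1.77-fold lower, the peptide transporter Tap2 differed by -0.99 ± 0.19 and the immunoproteasome subunit Psmb10 by -0.74, whereas the RNA sensor Ddx58 was 0.70 higher. Between PCL and CH the list's median was 0.07. The 6 detected Ifi, Ifit and Ifitm genes, all below 0 with PD (median -0.31), had a median of 0.31 there. Against the same untreated array these genes had a median of -0.44 on CH and -0.72 on LIF. PD against the mean of the untreated, CH and LIF arrays gave -0.04. For the whole interferon list the values were -0.15 on CH, -0.0011 on LIF and -0.27 against that mean. NF-kB and cytokine genes had 9 of 14 below 0 (median -0.19), with Tnfaip2 at -0.93 beside Ccl11.

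**Figure D4:**
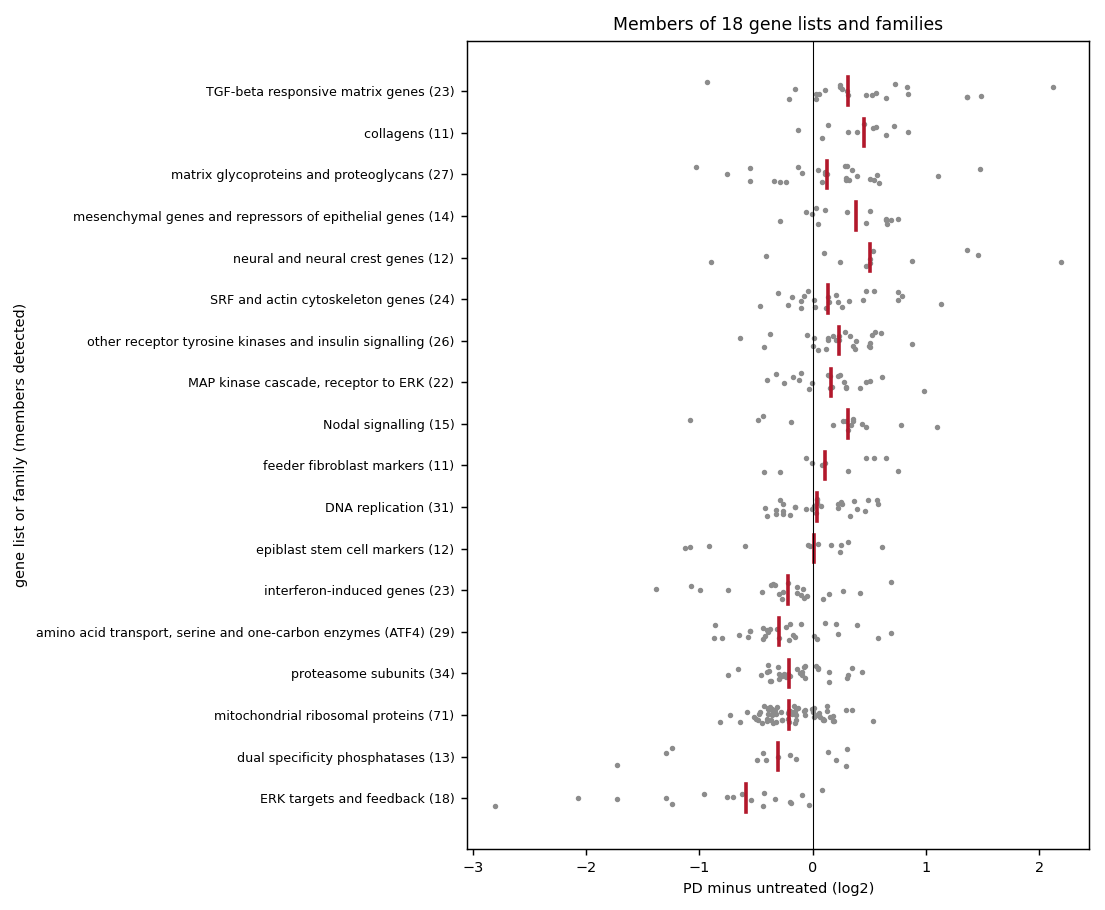
PD minus untreated (log2, horizontal axis) for the detected members of 18 gene lists and families, 1 grey point per gene and a red line at the median, with the number of detected members in brackets. ERK targets have a median of -0.58, and matrix and amino acid lists spread to both sides of 0; the neural list's median of 0.51 covers its 12 detected members and is 0.0071 with no filter on detection.

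Some housekeeping families lay a little below 0, while others, such as cytosolic ribosomal proteins (median -0.02) and cytochrome c oxidase subunits (-0.01), did not. Mitochondrial ribosomal proteins had 53 of 71 detected members below 0 (median -0.21), with Mrpl1 at -0.82 and Mrps18b at -0.73. Proteasome subunits had 25 of 34 below 0 (median -0.21), RNA polymerase subunits 14 of 17 (median -0.27, Polr3d at -0.69), complex I subunits 25 of 32 (median -0.15, Ndufb7 at -0.62) and the oxidative phosphorylation list 22 of 33 (median -0.15). Glutathione S-transferases had 15 of 16 below 0 (median -0.21), with Gsto1 at -0.70, Gstm4 at -0.67 and Gstp1 at -0.59; Gstp1 and Gstp2 are near-identical copies whose probes may share targets. On the higher side were kinesins, with 14 of 18 above 0 (median 0.25, Kif1b at 0.69 and Kif1a at 0.68), and lysine demethylases, with 7 of 12 (median 0.18, Kdm3a at 0.84). Against the same untreated array the lysine demethylase median was also 0.18 on LIF, and -0.08 on CH. That of kinesins was 0.17 on LIF and -0.09 on CH. With no filter on detection the PD medians were -0.0092 for lysine demethylases and 0.13 for kinesins.

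The same comparison varied with genomic span, the length of a gene including its introns. When the 7768 genes with a known span were put in 10 groups of equal size, the median difference was -0.15 in the shortest group and 0.16 in the longest, and the number at least 1.5-fold higher went from 21 to 102. For PCL against CH the medians were 0.05 and -0.02. For CH and LIF, which share the untreated array with PD, the medians against it went from -0.14 and -0.32 in the shortest group to 0.03 and 0.13 in the longest. After each gene's difference was reduced by the median of its span group, mitochondrial ribosomal proteins had a median of -0.12, proteasome subunits -0.14, complex I subunits -0.09, glutathione S-transferases -0.10 and kinesins 0.10, while RNA polymerase subunits kept -0.26, collagens 0.39 and TGF-beta responsive matrix genes 0.35. Ribosome biogenesis genes then had -0.018, the oxidative phosphorylation list -0.035, and nucleotide and polyamine genes -0.13. Dual specificity phosphatases had -0.16, protein tyrosine phosphatases 0.04, myosins 0.02 and lysine demethylases 0.06. Set against the mean of the untreated, CH and LIF arrays, the medians were 0.27 for complex I subunits, 0.23 for oxidative phosphorylation and 0.02 for glutathione S-transferases. Against that mean RNA polymerase subunits and mitochondrial ribosomal proteins each had -0.08, and proteasome subunits -0.13. Collagens had 0.34 and TGF-beta responsive matrix genes 0.39. The mean includes the LIF array, on which complex I subunits had a median of -1.12 against untreated. On LIF, RNA polymerase subunits had -0.42 and mitochondrial ribosomal proteins -0.40. The part of span in these families was not tested.

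**Figure D5:**
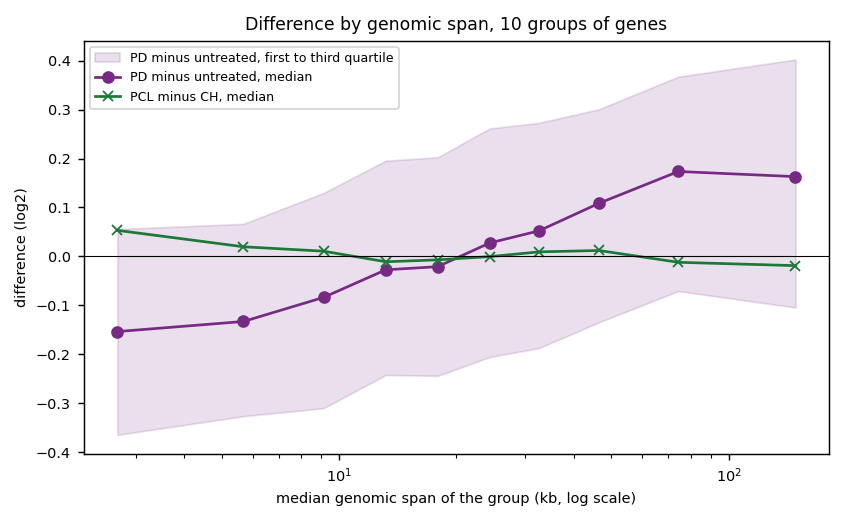
Median difference (log2, vertical axis) in 10 groups of genes by genomic span (kilobases, log scale) for PD minus untreated (circles, with the range from the first to the third quartile shaded) and PCL minus CH (crosses). The PD medians go from -0.15 in the shortest group to 0.16 in the longest, while those of PCL minus CH stay between -0.02 and 0.05.

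Chromatin genes and other families contributed single members. H3c10, a replication-dependent histone gene, was at least 1.53-fold lower and the linker histone gene H1f2 was 0.80 ± 0.10 higher, in a family with 22 of 37 below 0 (median -0.04). Sirt1, a deacetylase dependent on NAD, was 1.07 ± 0.12 higher than untreated, and LIF read nearly as much (9.21, against 9.47 on PD, 8.40 untreated, 7.66 on CH and 8.08 on PCL). Hdac5 was 0.69 higher and Sirt6 -0.58, with 7 of 16 deacetylases and sirtuins above 0. Trim54, a muscle ubiquitin ligase, was -1.05 ± 0.18, while 13 of 19 tripartite motif proteins lay above 0 (median 0.16). Against the same untreated array the tripartite motif median was 0.25 on LIF and -0.06 on CH. Chaperones had 18 of 23 above 0 (median 0.16), with Hsp90aa1 at 0.52 and Hsf2 at 0.47, yet -0.02 against the mean of the 3 arrays without PD. Potassium channels had 10 of 16 below 0 (median -0.18), but 9 of the 16 were detected on 1 array only and the median with these at their bound was -0.05. P450 enzymes had 7 of 12 above 0 (median 0.24) and orphan and adhesion G protein-coupled receptors 9 of 15 above 0 (median 0.20), in which Gpr27 lay at -0.81.

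The other 47 lists and families with at least 5 detected members had medians between -0.15 and 0.14 and no member past 2-fold. DNA replication genes lay at 0.04 and mitosis genes at 0.05, although Ccnd1, cyclin D1, was -0.62 ± 0.07 and Cdkn1b, the CDK inhibitor p27, 0.81 ± 0.20. Cytosolic ribosomal proteins lay at -0.02 over 55 detected genes, glycolysis at -0.02, cholesterol synthesis at 0.10, p53 targets at 0.06 and targets of YAP and TEAD at 0.04. Of the 3 detected laminins, all above 0, Lama1 was at least 1.9-fold higher but reached 6.22 on CH and 6.17 on PCL against 6.03 on PD.

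The pair PCL and CH, which shares no array with PD and untreated, gives a second look at the same inhibitor, with the limit that PCL also adds LIF. Of the 38 genes at least 2-fold higher with PD, 25 stood higher in PCL than in CH (51.0% of all genes did), and 12 were at least 1.5-fold higher there, against 2.59% of all genes. Of the 35 lower genes, 26 stood lower in PCL than in CH (48.7% of all), and 17 were at least 1.5-fold lower, against 3.16%. The median of PCL minus CH was 0.24 for the higher genes, -0.51 for the lower ones and 0.0065 over all genes. The PD array itself exceeded each of the untreated, CH and LIF arrays by at least 1.5-fold for 67 genes (0.862%) and was lower by as much than each for 42 (0.54%). PCL stood above CH for 55 of the 67 and below it for 37 of the 42, with 18 and 23 past 1.5-fold. The CH array took part in choosing these genes, so their counts for PCL against CH are not independent of that choice. Of the 38 and 35 genes past 2-fold, 20 and 15 met the stricter condition of differing by 1.5-fold from each of the untreated, CH and LIF arrays.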

How the data were processed

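RNA of 5 cultures was read on 5 bead arrays, and the 2 arrays named PD and untreated by the labels were compared. Per the file headers, the scanner table of each array holds, for 25697 probes, a mean bead intensity on a linear scale with no background subtracted, its bead standard error and a detection p-value. Per the submitters' processing notes the software was BeadStudio, with no version in the sources used here. The deposited table of processed intensity, rounded to whole numbers, with no value under 9 and 13131 PD entries null, was scaled by the authors in a way not stated, and served as an alternative.

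Intensities of all 5 arrays were corrected and quantile-normalized with neqc (limma 3.58.1, R 4.3.3), which infers the negative controls from the detection p-values and adds an offset of 16 before the log2. Tables and figures were made with Python 3.11.15, pandas 2.3.3, numpy 2.4.6 and matplotlib 3.10.9. The platform annotation names 23978 probes, of which 23962 matched RefSeq (GRCm38.p6) by Entrez ID. A gene was read by its brightest detected probe. The bound of a gene below detection on 1 array sets its detected level against the lowest detected level of the other array, or against its own level there if that is higher. On simulated arrays with 50 probes at each of 4 known fold changes, no estimate had the wrong sign. The run was set to stop at any wrong sign, so this was a condition of the run and not a finding. Of 50 probes with a true 2-fold difference, 18 (higher) and 21 (lower) passed 2-fold. The simulated arrays had 17254 unchanged probes detected, against 10735 probes on the real PD array. The changed probes were drawn only from bright detected probes, and the noise added was bead noise alone. Recovery was therefore not tested for dim genes or for the spread between cultures.

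The text names the 20 most higher and the 20 most lower genes past 2-fold, up to 5 members of each described list or family, a panel of pluripotency, ERK and reference genes, the 5 genes with the largest spread between probes, and the receptor-to-ERK cascade. A list or family, of 49 lists and 57 families, was described where at least 5 members were detected and its absolute median reached 0.15 or a member passed 2-fold. Of these, 1 family is not reported here. The members and lists were chosen with earlier results of these data known. With 1 array per condition there was no test, and the number of arrays limits the precision. Alternatives changed the background correction, offset, scaling, arrays normalized, detection filter, probe rule, values, span and comparison array. Promoters came from RefSeq.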

Additional observations from a re-analysis of the deposited data

Results flagged for a closer look

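A signal outside the named genes was seen in the 1719 probes without a gene name, of which 636 were detected on at least 1 of the 2 arrays. Among them 4 were at least 2-fold higher with PD than on the untreated array and 4 at least 2-fold lower, with differences from -1.25 to 1.21. They were left out of all counts of genes.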

How the results depend on the processing

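Every gene past 2-fold kept its sign under all alternatives that gave it a value. The 4 counts depended most on how dim signals were treated. Without background correction, 8 genes were at least 2-fold higher and 7 lower, and 110 and 60 passed 1.5-fold. An offset of 1 gave 211 and 199 past 2-fold and 756 and 646 past 1.5-fold, and an offset of 50 gave 15 and 10, then 167 and 108. Median scaling gave 60 higher and 19 lower past 2-fold. With detection required on both arrays, 23 genes were 2-fold lower and 239 were 1.5-fold lower, since fewer genes entered. Against the mean of the untreated, CH and LIF arrays, an alternative chosen after seeing the data, 22 genes were 2-fold lower, 273 were 1.5-fold higher and 171 were 1.5-fold lower. Of the 38 and 35 genes past 2-fold, 17 and 13 remained so there, and 34 and 27 stayed past 1.5-fold. The other alternatives left all 4 counts within 1.5 times: the 2 arrays normalized alone, a detection p of 0.05, no detection filter, the mean over probes, the authors' processed values and the span groups. Of 27 list medians of at least 0.2 in size, 5 values changed sign: regulators of G protein signalling (0.10) and glutathione S-transferases (0.0232) against the mean of 3 arrays, P450 enzymes with a detection p of 0.05 (-0.0587) and with no detection filter (-0.014), and G protein-coupled receptors with no detection filter (-0.0083). The causes were not tested. No paired analysis was possible because each condition had 1 array, which also left no replicate to leave out. Dim genes near background carry the least reliable differences.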

Other observations

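Probes of one gene did not always give the same difference. Among 2033 genes with several detected probes the median spread between probes was 0.30 (log2), and 54 genes had a spread of at least 1. The largest spreads were those of Pdyn (-2.12 and 0.20), Ppl (-0.84 and 1.15), Cyp4f16, a P450 enzyme (-0.96 to 0.88), Atp2a3, a calcium pump of the endoplasmic reticulum (-0.71 to 1.07), and Ybx3, a cold shock domain protein (-0.72 to 1.01). Of 15 such genes whose brightest probe passed 2-fold, the median of the other probes had the same sign for 13, passed 1.5-fold for 6 and passed 2-fold for 2.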
